A study of Mus musculus with 12 samples.

Results

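Transcripts of 9 dual specificity phosphatases (Dusp1, Dusp2, Dusp4, Dusp5, Dusp6, Dusp7, Dusp10, Dusp16 and Dusp22) were followed in mouse splenic B cells of 2 genotypes, before and after stimulation. The members were all probe sets annotated to these 9 symbols alone, 13 probe sets of the 45037 tested on the array and 9 genes of 18193, with no filter on low values, and all 13 were measured. Dusp7 had 3 probe sets, Dusp10 and Dusp16 had 2 each, and the other 6 genes had 1 each. B cells were depleted of CD43-positive cells to a stated purity above 98%, and total RNA (4 µg) was hybridised to Affymetrix mouse whole-genome arrays. The groups were wild type and EFLmDREAM transgenic B cells, each unstimulated (day 0) and after 2 days of culture with IL-4 (10 ng/ml) and LPS (20 µg/ml), with 3 arrays per group and 12 in all, stated to be independent biological replicates. EFLmDREAM is a mutant form of DREAM, the calcium-binding repressor encoded by Kcnip3, and the promoter that drives it, the strain and the age of the mice are not given in the sources used here. Stimulated cells had spent the 2 days in culture, so stimulation, culture and time cannot be told apart. Values are log2 probe set levels, and the small number of arrays bounds how precisely any difference is known.

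Dual specificity phosphatases remove phosphate from both the threonine and the tyrosine of the activation loop of MAP kinases, and so switch off ERK, JNK and p38. Several are made within minutes of MAP kinase activation and close a negative feedback loop, so that their transcripts are often read alongside the pathway's activity. They differ in place and substrate: Dusp1, Dusp2, Dusp4 and Dusp5 are inducible nuclear enzymes, Dusp6 and Dusp7 are cytoplasmic and prefer ERK, Dusp10 and Dusp16 act mainly on JNK and p38, and Dusp22 is a small atypical member linked to JNK signalling. In B cells, antigen receptor and Toll-like receptor signals, LPS among them, run through these kinases.

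The upstream sequences of the 4 single-probe-set genes that fell in both genotypes under all 3 scalings tried (Dusp1, Dusp2, Dusp5 and Dusp6) are shown because DREAM is known to bind DNA at elements with the core GTCA, and because the inducible members are known targets of CREB and of serum response factor. RefSeq windows of GRCm38.p6 were matched by symbol for 8 of the 9 members, without Dusp4, and only the 250 bases before each start are used here. Each is printed 5′ to 3′ on the strand of its gene, with capitals for the CRE (TGACGTCA), its core (TGACG), the E-box (CACGTG) and the CArG box, on either strand.
Dusp1, chr17:26508473-26508722, - strand: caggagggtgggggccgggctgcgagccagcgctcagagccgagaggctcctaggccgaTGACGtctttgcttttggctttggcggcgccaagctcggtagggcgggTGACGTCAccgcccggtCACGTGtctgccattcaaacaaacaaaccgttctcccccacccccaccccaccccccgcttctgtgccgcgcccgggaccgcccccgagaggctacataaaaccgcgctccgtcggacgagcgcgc
Dusp2, chr2:127335909-127336158, + strand: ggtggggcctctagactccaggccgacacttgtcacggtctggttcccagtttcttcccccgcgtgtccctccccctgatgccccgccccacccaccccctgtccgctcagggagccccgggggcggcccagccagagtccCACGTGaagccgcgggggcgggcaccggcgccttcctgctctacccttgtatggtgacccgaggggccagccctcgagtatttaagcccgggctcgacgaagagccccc
Dusp5, chr19:53528895-53529144, + strand: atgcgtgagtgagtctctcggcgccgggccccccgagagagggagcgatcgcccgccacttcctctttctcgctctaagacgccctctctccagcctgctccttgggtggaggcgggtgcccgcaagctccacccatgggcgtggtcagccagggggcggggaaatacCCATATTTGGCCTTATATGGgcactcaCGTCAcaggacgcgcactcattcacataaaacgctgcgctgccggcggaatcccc
Dusp6, chr10:99262981-99263230, + strand: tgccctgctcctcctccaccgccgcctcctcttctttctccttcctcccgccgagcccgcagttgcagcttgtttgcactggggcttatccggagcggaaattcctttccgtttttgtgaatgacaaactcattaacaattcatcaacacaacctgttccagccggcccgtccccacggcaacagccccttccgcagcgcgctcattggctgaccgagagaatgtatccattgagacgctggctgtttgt
The Dusp1 window held 1 full CRE, from 143 to 136 bases before the start, and an E-box from 126 to 121 bases before it. A full CRE was found in 1.55% of 32851 windows of the same length and an E-box in 6.02%. Dusp2 also held 1 E-box, from 109 to 104 bases before its start, and no CRE core. In Dusp5, 2 adjoining CArG boxes, the motif bound by serum response factor, lay from 82 to 73 and from 72 to 63 bases before the start, with 1 CRE core from 55 to 51. A CArG box was found in 1.47% of all windows and the CRE core in 17.8%. The Dusp6 window held none of the motifs in capitals. The DREAM core GTCA is short and overlaps the CRE core, since the other strand of TGACG ends in those letters, and it was found in 80.2% of all windows. It occurred 4 times in Dusp1, 2 times in Dusp2, 2 times in Dusp5, 2 times in Dusp6, 1 time in Dusp7, 2 times in Dusp10, 3 times in Dusp16 and not in Dusp22. The AP-1 letters TGANTCA (6.75% of windows) and the ETS letters CCGGAA (12% of windows) were in none of the 8 windows, and the GC box GGGCGG (32.7%) was in 6 of them, all but Dusp6 and Dusp7. A match is a run of letters and was not tested for binding.

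Unstimulated arrays had medians of 5.97 to 6.05, stimulated arrays medians of 5.36 to 5.41, and the median probe set differed between the states by −0.40 in either genotype on the deposited values. Changes with stimulation were therefore taken after quantile normalization over the 12 arrays, which put the median change at 0.037 (wild type) and 0.040 (transgenic). Differences between the genotypes within a state were taken on the deposited values. Arrays of a group correlated at 0.984 to 0.997. The level of the 5′ beta-actin control minus that of its 3′ control, a sign of RNA integrity, was −2.22 for wild type unstimulated replicate 1. It was −0.67 to −0.54 for the remaining unstimulated arrays and −1.36 to −0.43 for stimulated ones. Replicate 3 stood apart in each group by its low Y-linked Eif2s3y, 3.33 to 3.78, against 8.27 to 9.55 elsewhere. Xist read 9.41 to 12.12 over all 12 arrays, those with high Eif2s3y among them, and the sex of the animals was not assigned. B cell markers were present in every array, and the log2 of the summed linear level of the 9 measured was 15.2 to 15.5 in wild type and 15.4 in transgenic unstimulated arrays. Of those 9, 1 (Cr2) was higher in transgenic cells in each state. Kcnip3 averaged 6.88 ± 0.27 (wild type) and 7.12 ± 0.15 (transgenic) before stimulation, and 6.60 ± 0.059 and 6.63 ± 0.13 after it (SD, n = 3). Whether its probe set reads the transgene was not tested.

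**Figure D1:**
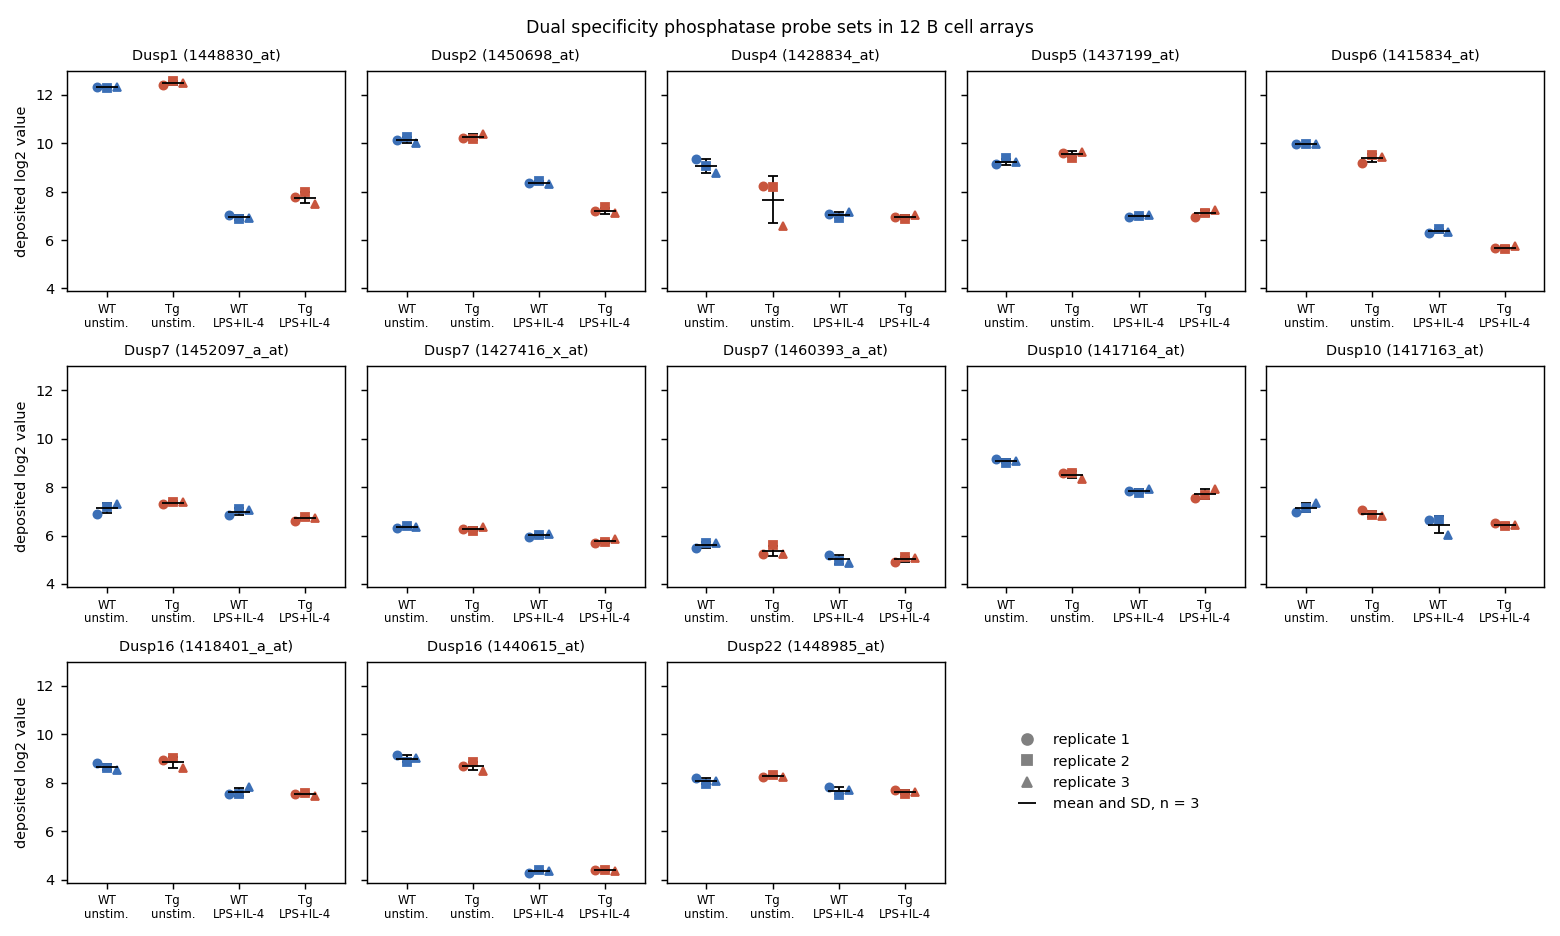
Deposited log2 value (y axis) of each of the 13 member probe sets in the 4 groups (x axis), with 1 point per array, the mean as a line and the SD as a bar (n = 3). Dusp1, Dusp6 and the Dusp16 probe set 1440615_at show the widest gaps between unstimulated and stimulated arrays, and Dusp4 in transgenic unstimulated replicate 3 lies at 6.57, below the 8.24 and 8.21 of the other arrays of its group. The medians of unstimulated and stimulated arrays differ on this scale.

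Most of these phosphatases were lower after stimulation in both genotypes. In wild type cells 8 of the 13 probe sets were lower after LPS and IL-4 and 2 were higher (limma, adjusted p under 0.05), where 26.1% of all probe sets were lower, 30.7% higher and 56.8% were called in either direction. In transgenic cells 8 were lower and none was higher, against 25.1% lower and 30.1% higher of all probe sets and 55.2% in either direction. These counts depend on the scaling. On the deposited values 12 of the 13 were lower and none higher in each genotype, where 64.8% (wild type) and 64.9% (transgenic) of all probe sets were lower. With array medians subtracted 8 were lower and 2 higher in wild type and 6 lower and 1 higher in transgenic cells, where 19.5% and 18% of all probe sets were lower. The groups did not overlap for 10 of the 13 in wild type cells (61.3% of all probe sets) and for 8 in transgenic cells (64.6%). Falls of at least 2-fold that passed the test were seen for 7 of the 13 in wild type (8.99% of all probe sets) and 6 in transgenic cells (8.49%). Taking the brightest probe set for each gene, the 9 genes had a median change of −1.75 (wild type) and −1.09 (transgenic), beside 0.080 and 0.083 over all genes. Passing in both genotypes were 7 probe sets of 6 genes: Dusp1, Dusp2, Dusp5, Dusp6, Dusp10 and both of Dusp16. Of these, 6 probe sets of 5 genes (all but Dusp10) were lower in both genotypes on the deposited and the median-centred values too. The shares of all probe sets that met these joint conditions were not counted. They are at most the 25.1% lower in transgenic cells and, under every scaling, the 18% lower there with array medians subtracted. These are bulk samples, in which fewer cells of a type and less RNA per cell cannot be told apart.

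**Figure D2:**
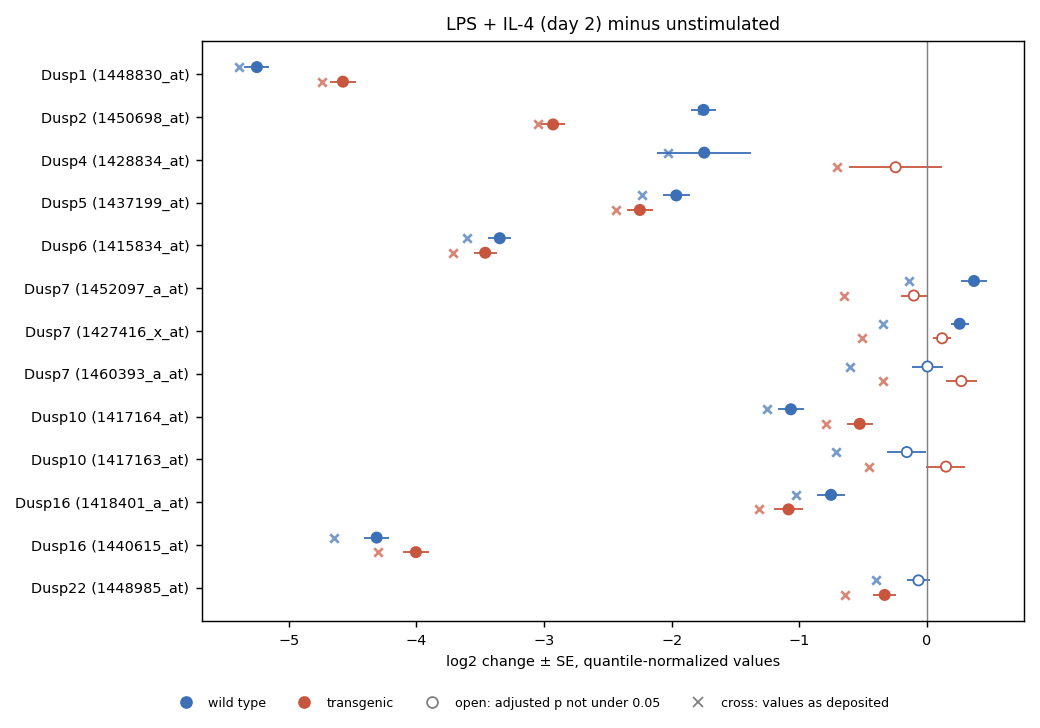
Change with stimulation (x axis, log2 of stimulated minus unstimulated, ± SE) for each member probe set (y axis) in wild type and transgenic cells, on quantile-normalized values; filled points have an adjusted p under 0.05, and crosses give the change on the deposited values. Dusp1 lies farthest left in both genotypes, at −5.25 and −4.58, and for Dusp7 all crosses lie left of 0 while its 2 filled points, at 0.37 and 0.26, lie right of it.

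Among the nuclear inducible enzymes, Dusp1 (MKP-1), which acts on p38, JNK and ERK, fell the most. Its deposited values were 12.32, 12.30 and 12.34 in wild type and 12.40, 12.58 and 12.51 in transgenic unstimulated arrays. After stimulation they were 7.05, 6.85 and 6.90 in wild type and 7.78, 7.98 and 7.51 in transgenic arrays. Every stimulated array was thus far below every unstimulated one, and within the stimulated state the transgenic arrays lay above the wild type arrays. The change was −5.25 ± 0.099 (SE, n = 3 arrays per group, here and for all fitted differences) in wild type cells, 38.0-fold lower (adjusted p = 8.42e-13). In transgenic cells it was −4.58 ± 0.099, 23.8-fold lower (adjusted p = 2.84e-12).

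Dusp2 (PAC-1), a nuclear phosphatase found mainly in blood and lymphoid cells, fell in both genotypes and farther in transgenic cells. Unstimulated arrays read 10.14, 10.25 and 10.02 in wild type and 10.20, 10.19 and 10.40 in transgenic cells. Stimulated arrays read 8.37, 8.44 and 8.32 in wild type and 7.19, 7.35 and 7.10 in transgenic cells. The genotypes overlapped before stimulation and were fully apart after it. The fall was 3.37-fold in wild type (−1.75 ± 0.095, adjusted p = 5.21e-09) and 7.62-fold in transgenic cells (−2.93 ± 0.095, adjusted p = 7.16e-11).

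Dusp5, a nuclear phosphatase selective for ERK, fell in both genotypes. It read 9.14, 9.38 and 9.21 in wild type and 9.61, 9.41 and 9.63 in transgenic unstimulated arrays, and 6.97, 7.01 and 7.05 against 6.97, 7.13 and 7.24 after stimulation. The fall was 3.90-fold in wild type (−1.96 ± 0.10, adjusted p = 4.38e-09) and 4.75-fold in transgenic cells (−2.25 ± 0.10, adjusted p = 1.44e-09). The falls differed by −0.28 ± 0.15 on these values (adjusted p = 0.431), and by −0.20 on the deposited values, with a 95% interval from −0.49 to 0.086.

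Dusp4 (MKP-2), a further nuclear enzyme, had the widest spread of the 13. Unstimulated arrays read 9.34, 9.08 and 8.77 in wild type and 8.24, 8.21 and 6.57 in transgenic cells, and stimulated arrays 7.06, 6.91 and 7.14 in wild type and 6.96, 6.89 and 7.05 in transgenic cells. All 6 stimulated arrays lay within a narrow band, and 1 transgenic unstimulated array, replicate 3, lay below it. In wild type cells Dusp4 fell 3.35-fold (−1.75 ± 0.37, adjusted p = 0.00119). In transgenic cells the change was −0.25 ± 0.37 (95% interval −1.04 to 0.55, adjusted p = 0.597). That value rests on 1 array: without transgenic unstimulated replicate 3 it was −0.86 (adjusted p = 0.000174), and without replicate 1 or replicate 2 of that group it was 0.078 or 0.047. With only replicates 1 and 2 of each group, an alternative added after the data were seen, it was −0.91 (adjusted p = 0.000227).

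Of the cytoplasmic enzymes, Dusp6 (MKP-3), which is specific for ERK and itself an ERK-induced transcript, fell in both genotypes. It read 9.96, 9.97 and 9.95 in wild type and 9.20, 9.53 and 9.44 in transgenic unstimulated arrays. After stimulation it read 6.30, 6.45 and 6.33 in wild type and 5.68, 5.61 and 5.74 in transgenic arrays. The transgenic arrays lay below the wild type arrays in both states, with no overlap. The fall was 10.2-fold in wild type (−3.35 ± 0.090, adjusted p = 1.34e-11) and 11.01-fold in transgenic cells (−3.46 ± 0.090, adjusted p = 1.32e-11), and on the deposited values the falls differed by −0.11 (95% interval −0.38 to 0.16).

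Dusp7, the closest relative of Dusp6 among the members, did not share a fall of that size. Its probe set 1452097_a_at read 6.91, 7.19 and 7.29 in wild type and 7.29, 7.40 and 7.39 in transgenic unstimulated arrays, and 6.84, 7.08 and 7.05 against 6.62, 6.77 and 6.73 after stimulation. After quantile normalization it was higher by 0.37 ± 0.10 in stimulated wild type cells (adjusted p = 0.00767), and 1427416_x_at was higher by 0.26 ± 0.071 (adjusted p = 0.00776). Neither direction held on the deposited values, where the changes were −0.14 and −0.34. The third probe set, 1460393_a_at, differed by 0.0031 (adjusted p = 0.985), and by −0.61 on the deposited values. In transgenic cells no Dusp7 probe set passed, with changes of −0.10, 0.12 and 0.27 and adjusted p from 0.0799 to 0.413. On the deposited values all 3 were lower there (−0.65, −0.51 and −0.34, adjusted p = 7.37e-05, 3.61e-05 and 0.0199), and with array medians subtracted 1460393_a_at was higher (0.30, adjusted p = 0.0485). No call for Dusp7 thus held under every scaling. Only 1452097_a_at in transgenic cells kept its sign, negative under each. Across the 12 arrays the 3 probe sets ranged over 6.62 to 7.40, 5.71 to 6.39 and 4.87 to 5.71.

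The JNK and p38 phosphatases Dusp10 (MKP-5) and Dusp16 (MKP-7) gave values that depended on the probe set. Dusp10 probe set 1417164_at read 9.16, 9.02 and 9.09 in wild type and 8.60, 8.60 and 8.35 in transgenic unstimulated arrays, and 7.85, 7.76 and 7.91 against 7.57, 7.66 and 7.94 after stimulation. It fell 2.09-fold in wild type (−1.07 ± 0.10, adjusted p = 1.1e-06) and 1.44-fold in transgenic cells (−0.53 ± 0.10, adjusted p = 0.000635), the latter lost with array medians subtracted (−0.15, adjusted p = 0.227). The other Dusp10 probe set, 1417163_at, ranged from 6.04 to 7.35 over the arrays and differed by −0.16 (adjusted p = 0.398) and 0.15 (adjusted p = 0.438). On the deposited values it too was lower, by −0.71 in wild type (adjusted p = 0.000769) and −0.45 in transgenic cells (adjusted p = 0.0143).

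Dusp16 probe set 1440615_at read 9.13, 8.84 and 9.02 in wild type and 8.70, 8.84 and 8.50 in transgenic unstimulated arrays, and 4.29, 4.39 and 4.37 against 4.38, 4.40 and 4.35 after stimulation. That fall was the second largest among the members, 19.9-fold in wild type (−4.31 ± 0.099, adjusted p = 4.2e-12) and 16.0-fold in transgenic cells (−4.004 ± 0.099, adjusted p = 9.18e-12). The stimulated values of this probe set lay below the stimulated array medians of 5.36 to 5.41. The low end of the scale may therefore bound the fold and any genotype difference there. The other probe set, 1418401_a_at, read 8.81, 8.61 and 8.53 in wild type and 8.93, 9.01 and 8.60 in transgenic unstimulated arrays, and 7.52, 7.53 and 7.83 against 7.54, 7.59 and 7.47 after stimulation. It fell 1.68-fold (−0.75 ± 0.11, adjusted p = 7.07e-05) and 2.12-fold (−1.09 ± 0.11, adjusted p = 2.53e-06). Both probe sets fell in both genotypes, but by very unequal amounts, and which transcripts of the gene each one reads was not analysed here.

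Dusp22 (JSP1), the small atypical enzyme, also gave values that moved with the scaling. It read 8.20, 7.93 and 8.08 in wild type and 8.25, 8.31 and 8.25 in transgenic unstimulated arrays, and 7.82, 7.51 and 7.68 against 7.71, 7.55 and 7.61 after stimulation. The change was −0.068 ± 0.091 in wild type cells (95% interval −0.27 to 0.13, adjusted p = 0.554), −0.40 on the deposited values (adjusted p = 0.00176) and 0.22 with array medians subtracted (adjusted p = 0.0724). In transgenic cells it fell 1.26-fold (−0.33 ± 0.091, adjusted p = 0.00754), where the deposited values gave −0.65 (adjusted p = 3.91e-05) and subtracting array medians −0.0067.

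Most transcripts of handling stress moved in the same direction as the inducible members. Of 16 such genes measured, 12 were lower after stimulation in each genotype, among them Fos, Jun and Egr1. Going the other way, 2 were higher in wild type and 3 in transgenic cells. The log2 of the summed level of the list was 15.2 to 15.5 and 15.5 to 15.6 in unstimulated against 13.6 to 13.7 in stimulated arrays of both genotypes. B cell markers were lower as well, 8 of 9 in each genotype, with summed levels of 14.3 to 14.5 after stimulation. Many markers of other cells were lower too, beside 24% (wild type) and 23.3% (transgenic) of all genes. Of 12 granulocyte genes 7 (wild type) and 12 (transgenic) were lower and none higher. Of 14 monocyte, macrophage and dendritic cell genes 8 and 12 were lower, and Marco was higher in each genotype. Of 10 erythroid genes 6 and 8 were lower, and Tfrc was higher in each genotype. The summed erythroid level was 10.7 to 10.8 before and 11.4 to 11.6 after stimulation in wild type arrays. In transgenic arrays it was 11.2 to 11.6 and 11.4. After stimulation that sum was almost all Tfrc, which averaged 11.3 in each genotype, against 9.83 in unstimulated wild type arrays. The next brightest gene of the list after stimulation, Epor, averaged 6.26 in wild type and 6.36 in transgenic arrays. Of 13 T and NK cell genes 5 and 7 were lower and 3 and 2 higher. Plasma cell genes were split, 5 lower and 5 higher of 11 in wild type and 4 and 4 in transgenic cells. The part of any of these lists in the falls of the phosphatases was not tested.

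Between the unstimulated genotypes, Dusp4, Dusp6 and Dusp10 were lower in transgenic cells and no member was higher at the threshold. That is 3 of the 13 probe sets, beside 4.98% of all probe sets lower, 4.47% higher and 9.45% in either direction. For 6 of the 13 the arrays of the genotypes were fully apart (24.3% of all probe sets): the 3 called ones, Dusp1, Dusp5 and Dusp22. At the brightest probe set the median difference of the 9 genes was 0.18, beside 0.013 over all genes, since 6 genes had positive and 3 negative values.

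**Figure D3:**
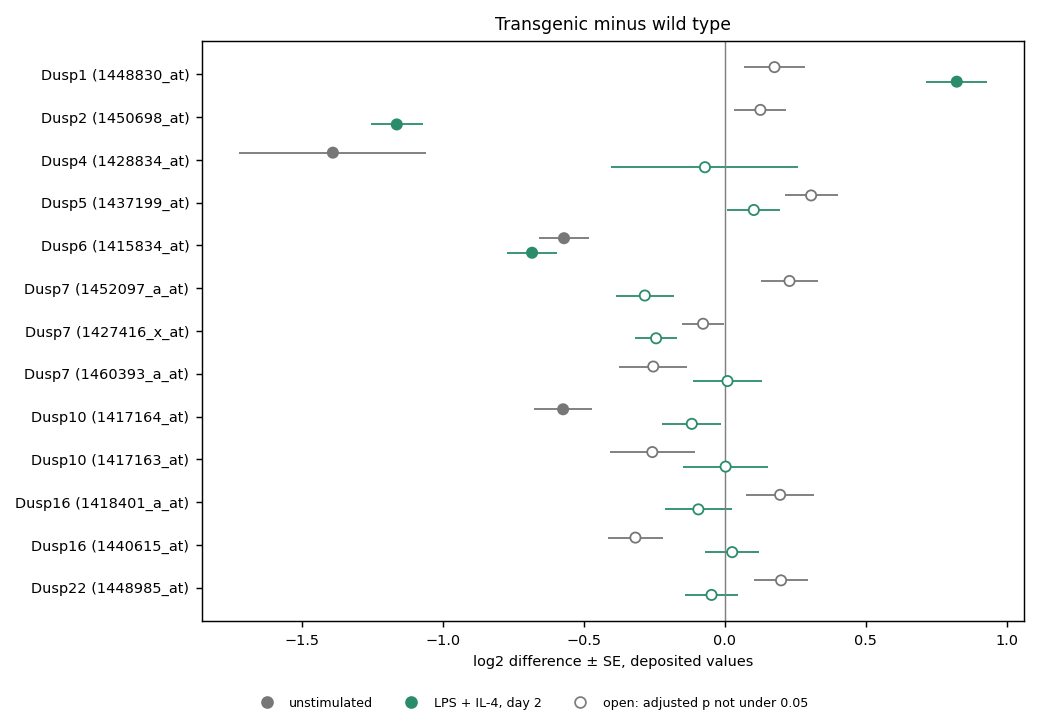
Difference between the genotypes (x axis, log2 of transgenic minus wild type, ± SE, deposited values) for each member probe set (y axis), unstimulated and after LPS and IL-4; filled points have an adjusted p under 0.05. Dusp6 is filled on the left in both states, at −0.57 and −0.68, and after stimulation Dusp1 (0.82) and Dusp2 (−1.16) lie on opposite sides of 0.

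Dusp6 was 1.48-fold lower in unstimulated transgenic cells (−0.57 ± 0.088, adjusted p = 0.0015), with the arrays of the genotypes apart by more than their spread. Leaving out any 1 of the 12 arrays kept it between −0.64 and −0.48. Dusp10 at 1417164_at was 1.49-fold lower (−0.57 ± 0.10, adjusted p = 0.00434), while 1417163_at differed by −0.26 ± 0.15 (adjusted p = 0.329).

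Dusp4 was 2.62-fold lower (−1.39 ± 0.33, adjusted p = 0.0200), the largest difference and the least steady. Without transgenic unstimulated replicate 3 the difference was −0.84 (adjusted p = 0.0051). The call was lost without wild type unstimulated replicate 1 (−1.25, adjusted p = 0.0642), the array with the low actin 5′ signal, without wild type unstimulated replicate 2 (−1.38, adjusted p = 0.0552), and in a fit of the 6 unstimulated arrays alone (adjusted p = 0.113).

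The remaining inducible members did not pass. Dusp5 differed by 0.31 ± 0.094 (adjusted p = 0.0608), and by 0.40 with an adjusted p of 0.0296 after quantile normalization. Dusp1 differed by 0.18 ± 0.11 (adjusted p = 0.349) and Dusp2 by 0.13 ± 0.093 (adjusted p = 0.448), with 95% intervals of −0.056 to 0.41 and −0.074 to 0.33. Dusp22 differed by 0.20 ± 0.094 (adjusted p = 0.217). For Dusp7 the differences were 0.23, −0.077 and −0.25, and for Dusp16 they were 0.20 at 1418401_a_at and −0.32 at 1440615_at, opposite in sign within each gene. Of these 5 probe sets the Dusp16 one at −0.32 came closest (adjusted p = 0.0587, and 0.0403 with array medians subtracted). The Dusp7 one at −0.25, 1460393_a_at, read 5.24 to 5.71 here, below the unstimulated array medians of 5.97 to 6.05. It lay below the medians of the stimulated arrays as well, so the low end of the scale may bound its differences.

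Markers of other cells differed between the same unstimulated arrays. Of 12 granulocyte genes 11 were higher in transgenic cells, S100a9 by 4.89 and S100a8 by 4.62, and the log2 of the summed level was 9.87 to 10.1 in wild type and 13.3 to 13.9 in transgenic arrays. Of 14 monocyte, macrophage and dendritic cell genes 12 were higher, with summed levels of 12.1 to 12.4 against 13.1 to 13.7. Erythroid genes were higher for 7 and lower for 1 of 10 (10.7 to 10.8 against 11.2 to 11.6), T and NK cell genes higher for 4 of 13 (10.1 to 10.5 against 10.7 to 10.9), and plasma cell genes higher for 7 of 11 (14.05 to 14.2 against 14.6). Handling stress genes were higher for 4 of 16, Ier3, Egr1, Atf3 and Fosb, with summed levels of 15.2 to 15.5 against 15.5 to 15.6. Dusp4, Dusp6 and Dusp10 were lower in the arrays where these markers were higher, and the part of other cells in any difference was not tested.

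After stimulation the genotypes differed in Dusp1, Dusp2 and Dusp6. Dusp1 was higher and the other two were lower in transgenic cells, 3 of 13 probe sets beside 0.868% of all probe sets higher, 0.995% lower and 1.86% in either direction. For 5 of the 13 they were fully apart (19% of all probe sets), these 3 and Dusp7 at 1452097_a_at and 1427416_x_at. Over the 9 genes the median difference was −0.093, beside 0 over all genes.

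Dusp2 was 2.24-fold lower in stimulated transgenic cells (−1.16 ± 0.093, adjusted p = 1.36e-05), and leaving out 1 array at a time gave −1.23 to −1.11. Dusp6 was 1.61-fold lower (−0.68 ± 0.088, adjusted p = 0.00103; −0.72 to −0.64 with 1 array left out). It was the only one of the 13 lower in transgenic cells in both states. The share of all probe sets lower in both states was not counted, and is at most the 0.995% lower after stimulation. Dusp1 was 1.77-fold higher (0.82 ± 0.11, adjusted p = 0.00108; 0.71 to 0.95 with 1 array left out), although it had fallen in both genotypes from its unstimulated level.

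No other member passed in stimulated cells. Dusp7 differed by −0.28 ± 0.10 at 1452097_a_at (adjusted p = 0.263), −0.24 ± 0.074 at 1427416_x_at (adjusted p = 0.150) and 0.010 ± 0.12 at 1460393_a_at (adjusted p = 0.991). For Dusp4 the difference was −0.070 with a 95% interval of −0.79 to 0.65, and for Dusp5 it was 0.10 with an interval of −0.10 to 0.31. Dusp10, Dusp16 and Dusp22 differed by −0.12 to 0.027, with adjusted p from 0.806 to 0.995.

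Other cell markers differed here as well. Granulocyte genes were higher in transgenic cells for 3 of 12, with summed levels of 8.48 to 8.53 against 8.91 to 9.13, and monocyte, macrophage and dendritic cell genes for 3 of 14 (Marco, Lyz2 and Cd14), with 9.80 to 10.0 against 10.4 to 10.9. Plasma cell genes were higher for 5 of 11 (14.01 to 14.2 against 14.5), erythroid and T and NK cell genes for none of 10 and 13. Handling stress genes were higher for 3 of 16, Fos by 0.74, Atf3 by 0.65 and Ier3 by 0.64, and lower for none. The summed level of that list was 13.6 to 13.7 in both genotypes. Dusp1 was higher and Dusp2 and Dusp6 were lower in the same arrays, and the part of these lists in their differences was not tested.

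The response to stimulation itself differed between the genotypes for 1 of the 13 probe sets, that of Dusp2, beside 1.58% of all probe sets, 1% in that direction and 0.575% in the other. Its change was lower in transgenic than in wild type cells by a further −1.29 ± 0.13 on the deposited values (limma interaction term, adjusted p = 0.000297), and −1.36 to −1.22 with 1 array left out. In the same contrast 10 of 12 granulocyte genes, 5 of 14 monocyte, macrophage and dendritic cell genes and 5 of 10 erythroid genes also had a lower term, beside 1.39% of all genes. Marco, on the monocyte, macrophage and dendritic cell list, had a higher term (1.17, adjusted p = 0.0192), beside 0.588% of all genes. The part of these genes in the term of Dusp2 was not tested. For Dusp1 the term was 0.65 ± 0.15 (adjusted p = 0.0562), and it passed after quantile normalization (0.67, adjusted p = 0.0287) and with a prior that follows the mean level (adjusted p = 0.0444). Dusp7 at 1452097_a_at had −0.51 ± 0.15 (adjusted p = 0.119), which passed with the replicate number as a block (adjusted p = 0.0426). For Dusp4 the term was 1.32 ± 0.47 (adjusted p = 0.230), with a 95% interval of 0.30 to 2.34 before adjustment. So although Dusp4 passed in unstimulated and not in stimulated cells, that contrast between the states was not shown at the threshold, and neither was that of Dusp10 (0.46 ± 0.15, adjusted p = 0.179). For Dusp6, lower in both states, the term was −0.11 ± 0.12 (adjusted p = 0.759).

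The wider pathway was read from lists of genes, each at its brightest probe set, and described by counts. Over all genes 36% were higher and 24% lower after stimulation of wild type cells, and 35.2% and 23.3% in transgenic cells. Among 17 transcripts known to be induced by ERK, 12 were lower and 2 higher in wild type (median −0.67) and 13 lower and 3 higher in transgenic cells (median −1.03). The immediate early transcription factor genes Fosb (−7.15), Fos (−6.05), Nr4a1 (−5.81) and Egr3 (−3.65) had the largest falls in wild type cells. Dusp1 and Dusp6 thus moved in the same direction as most of these transcripts, of which 7 are also on the handling stress list. Of the 7 measured kinases that MAP kinases activate, 5 were lower and 1 higher in each genotype, with Rps6ka5 at −2.68 and Rps6ka3 at −1.83 lower and Mapkapk3 at 1.197 higher in wild type cells.

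Upstream, 11 of 24 kinases and RAS activators were lower and 3 higher in wild type, and 13 lower and 3 higher in transgenic cells. Map3k1 (−1.76) and the RAS exchange factors Rasgrp1 (−1.66) and Rasgrp3 (−1.40) fell most in wild type cells. Among 12 measured MAP kinases, 4 were lower and 2 higher in wild type and 4 lower and 3 higher in transgenic cells, the p38 genes Mapk11 (−1.62), Mapk14 (−1.04) and Mapk12 (−0.76) among the lower ones in wild type. Other inhibitors of RAS and MAP kinase signalling were split, with 8 of 20 higher and 6 lower in wild type and 9 higher and 6 lower in transgenic cells: the ERK pathway inhibitor Spred1 rose by 1.82 and the adaptor Dok3 fell by 2.13 in wild type. Of 19 further members of the dual specificity family, 7 were higher and 7 lower in wild type and 6 and 6 in transgenic cells (medians −0.10 and −0.040). In wild type cells Dusp19 rose by 1.84 and Dusp12 by 1.26, while the cofilin phosphatases Ssh1 (−2.35) and Ssh2 (−1.51) fell. Some further genes of these lists were not analysed here.

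**Figure D4:**
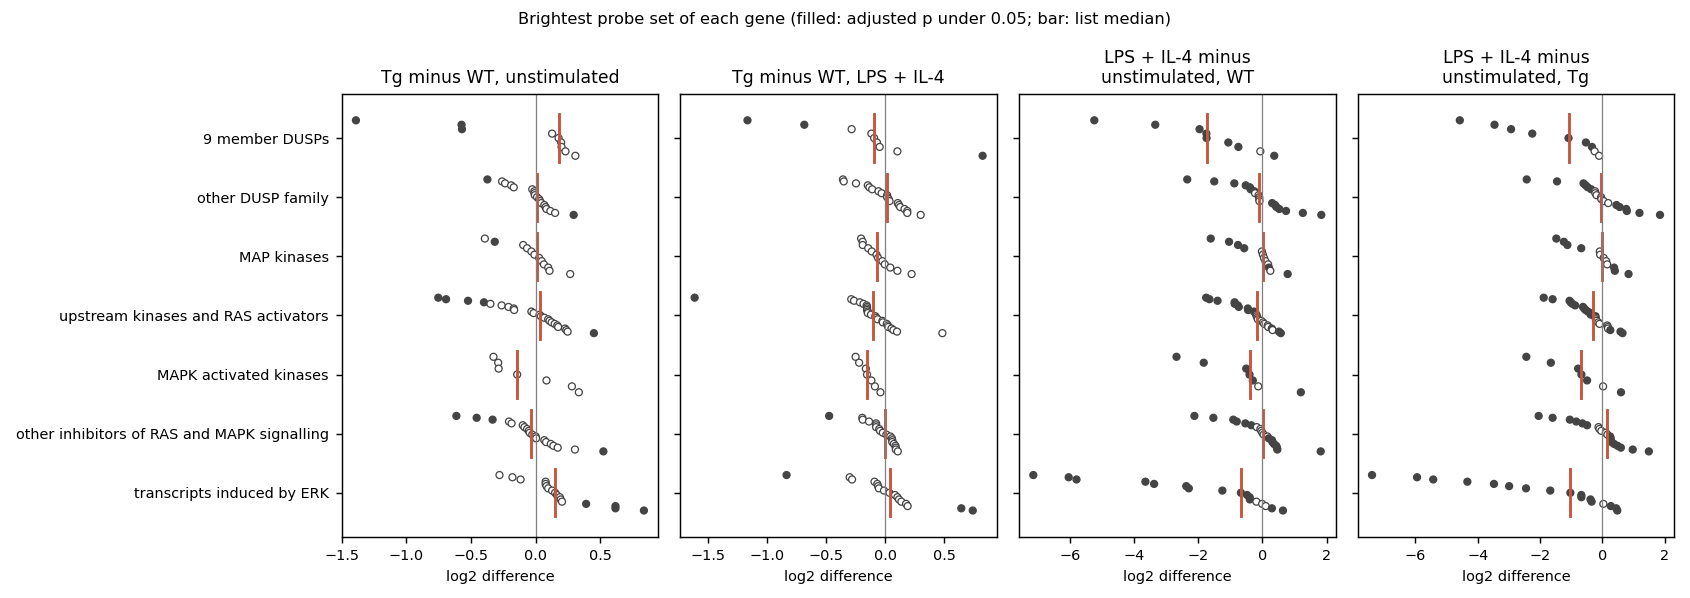
Log2 difference (x axes) of the brightest probe set of each gene in the 9 members and 6 pathway lists (y axis), for the genotypes in each state on deposited values and for stimulation in each genotype on quantile-normalized values; filled points have an adjusted p under 0.05 and bars are list medians. In the stimulation panels the bar of the 9 members lies at −1.75 and −1.09 and that of the ERK-induced transcripts at −0.67 and −1.03, while the bar of the other family members lies at −0.10 and −0.040.

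Between the genotypes few pathway genes passed, as few did over all genes (5.45% higher and 4.9% lower unstimulated, 1.24% and 1.1% stimulated). In unstimulated transgenic cells 4 of the 17 ERK-induced transcripts were higher and none lower, Ier3 by 0.84, Egr1 and the cyclin Ccnd1 by 0.62 each and Fosb by 0.39. Of the 24 upstream genes 4 were lower and 1 higher: Rasgrp1 (−0.75), Map3k8 (−0.69), Map3k2 (−0.52) and Map2k4 (−0.40) against Map2k3 (0.45). Among inhibitors 3 of 20 were lower, the RAS GTPase-activating genes Rasa2 (−0.61), Rasa1 (−0.46) and Nf1 (−0.33), and the adaptor gene Dok2 was higher (0.52). The p38 gene Mapk11 (−0.32) was the 1 of 12 MAP kinases that passed, none of the 7 activated kinases did, and of the other family members Ssh3 (−0.37) was lower and Styxl1 (0.29) higher.

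After stimulation the RAS and RAP exchange factor gene Rasgrp2 was lower in transgenic cells by −1.61 ± 0.10 (adjusted p = 1.37e-06), the 1 of 24 upstream genes to pass. It is also 1 of the 3 upstream genes with a called interaction (−1.58), beside Map2k3 (−0.71) and Rasgrp1 (0.63), where over all genes 0.588% had a higher and 1.39% a lower term. Of the ERK-induced transcripts Fos (0.74) and Ier3 (0.64) were higher and Egr3 (−0.83) lower in stimulated transgenic cells, and Spred1 was lower (−0.47). No MAP kinase, activated kinase or other family member passed in this state, and none of these 3 lists nor the inhibitors or ERK-induced transcripts held a called interaction.

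Genes with the pattern most like each member were ranked by Pearson correlation over the 12 quantile-normalized arrays, among 3854 other genes (3855 for Dusp7 and Dusp22) whose group means span at least 1 on the log2 scale, as a description without a test. All points share the same arrays, and the step between the states dominates most of these values. For Dusp1 the closest were Abca1, Itga4 and Serpinb1a (all 0.999), for Dusp5 Inpp5k (0.997), Mirt1 (0.996) and Fcrl1 (0.995), and for Dusp6 Arhgef18 (0.998), Sorl1 (0.997) and Ighv14-2 (0.996). Dusp2, which like Dusp1 and Dusp6 also separated the stimulated genotypes, lay closest to the Krüppel-like factor gene Klf2 (0.987), Gga2 and Klf3 (both 0.986). Dusp10 lay closest to Rictor (0.985), Parp4 and Rasgrp1 (both 0.973), and Dusp16 at 1418401_a_at to Rbpms (0.983), Tubb1 (0.981) and Nsf (0.980). The members with little or uneven change had looser neighbours. These were Zc3h7a (0.907), Arid4a (0.878) and Slf2 (0.877) for Dusp4, Cd82 (0.790), Raly (0.749) and Ccdc86 (0.722) for Dusp7, and Mpo (0.878), Ces2g (0.877) and Ptpn14 (0.871) for Dusp22. Mpo is on the granulocyte list and was higher by 2.65 in unstimulated transgenic cells, the group in which Dusp22 read highest.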

How the data were processed

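Probe set levels of 12 arrays were used as deposited: log2 values that the authors made with RMA (affy), per the submitters' processing notes, without versions. The sources used here do not say whether both states were normalized together. The table held 45101 probe sets, 64 of them array controls that were not used. Of the other 45037, 34945 carried 1 gene symbol, 932 several and 9160 none. The brightest probe set over the 12 arrays stood for a gene in statements about genes. Upstream windows came from RefSeq (GRCm38.p6).

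A linear model with a coefficient for each group was fitted to the 12 arrays (limma 3.58.1, R 4.3.3), with a constant prior and 2-sided tests. P-values were adjusted by Benjamini and Hochberg over all 45037, with a threshold of 0.05. Every adjusted p in the text comes from that fit or a named alternative. Fold changes are 2 to the power of the log2 difference. The 5 contrasts were the genotypes in each state, stimulation in each genotype (after quantile normalization) and the interaction. Contrasts share arrays.

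The members, lists and tests were chosen with earlier results of these data known. Named are all member probe sets, up to 4 called genes with the largest change per pathway list and contrast, up to 3 per marker list, and the 3 genes closest to each member. Marker lists were summed on the linear scale per array. The fit was tried on simulated arrays with independent noise, for the difference between the unstimulated genotypes only. The scaling, the changes with stimulation, the interaction and shared replicates were not simulated.

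Same-numbered replicates were checked for shared deviations from their group means, by correlation. For the stimulated genotypes r was 0.33, 0.10 and 0.18, and for wild type stimulation 0.32, 0.18 and 0.19. It was 0.078, 0.070 and 0.30 for the unstimulated genotypes and 0.069, −0.16 and 0.12 for transgenic stimulation. Arrays of unlike number gave −0.26 to 0.057 for the stimulated genotypes and −0.23 to 0.098 for wild type stimulation. They gave −0.19 to 0.11 for the unstimulated genotypes and −0.18 to 0.16 for transgenic stimulation, where like numbers did not all exceed that range. Any pairing in the first pair of contrasts is thus read from these data, not from the labels, which name none. The main fit uses no pairing. The number as a block is an alternative. The others were another scaling, no dim probe sets, only the 6 arrays compared, a prior following the mean level, leaving out each array, and, added after the data were seen, only replicates 1 and 2.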

Additional observations from a re-analysis of the deposited data

Results flagged for a closer look

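The change of Dusp2 with stimulation differed between the genotypes by a test of the difference itself. The interaction term, transgenic minus wild type, was −1.29 on the log2 scale (limma, adjusted p = 0.000297). Dusp2 fell 3.37-fold in wild type and 7.62-fold in transgenic cells, and all 3 stimulated transgenic arrays (7.10 to 7.35) lay below all 3 stimulated wild type arrays (8.32 to 8.44). Under quantile normalization the term was −1.18 (adjusted p = 0.000784) and with replicates 1 and 2 alone −1.14 (adjusted p = 0.0149).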

How the results depend on the processing

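Over 8 settings other than leaving out an array, 411 of 442 values kept their direction and side of the threshold, and over 12 arrays left out in turn 756 of 780 did. Part of this agreement was fixed by the design. Leaving out an array from outside a comparison of 2 groups changes the adjusted p but not the difference. The replicate block, dropping dim probe sets, the fit of 6 arrays and the other prior also leave the difference unchanged. The number of all probe sets called was 1908 between the unstimulated genotypes with only the 6 arrays compared (main 4256). With only replicates 1 and 2 it was 327 between the stimulated genotypes (839) and 222 for the interaction (710). Members called for the interaction were 2 under quantile normalization, with the replicate block and with a prior that follows the mean level (main 1). The replicate block changed no other member call. With 1 array left out, the calls over all probe sets ranged from 2174 to 7518 and from 452 to 1272 between unstimulated and stimulated genotypes, from 23263 to 25448 and from 22439 to 26127 for stimulation of wild type and transgenic cells, and from 388 to 1418 for the interaction. The member calls ranged from 2 to 5 between unstimulated genotypes, 8 to 9 for transgenic stimulation and 1 to 2 for the interaction.

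For values that changed sign the cause was not tested. Between stimulated genotypes, Dusp10 at 1417163_at (main 0.0033) was −0.00083 quantile-normalized, −0.017 with medians subtracted and −0.19 with replicates 1 and 2 (−0.20 to 0.11 with 1 array left out). Dusp7 at 1460393_a_at (main 0.010) was −0.012, −0.010 and −0.085 (−0.062 to 0.10). Dusp16 at 1418401_a_at was 0.040 with replicates 1 and 2 (−0.15 to 0.0083), Dusp16 at 1440615_at ranged from −0.0033 to 0.047 and Dusp22 from −0.13 to 0.028. For wild type stimulation the deposited values gave −0.14, −0.34 and −0.61 for the Dusp7 probe sets 1452097_a_at, 1427416_x_at and 1460393_a_at (the last −0.097 to 0.078 with 1 array left out). Dusp22 was 0.22 with medians subtracted, and Dusp10 at 1417163_at 0.15 with replicates 1 and 2 (−0.26 to 0.042). For transgenic stimulation the deposited values gave −0.45 for Dusp10 at 1417163_at, −0.51 for Dusp7 at 1427416_x_at and −0.34 at 1460393_a_at, and Dusp4 ranged from −0.86 to 0.078. The interaction of Dusp10 at 1417163_at was −0.080 with replicates 1 and 2.

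The share of higher calls moved with scaling: 47.3% as deposited and 36.3% with medians subtracted between unstimulated genotypes, and for stimulation 54% and 54.6% quantile-normalized (wild type and transgenic), 17.9% and 17.5% as deposited and 70.9% and 73.3% with medians subtracted.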
